A study of Mus musculus with 39 samples.

Results

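The genes described here mark subsets of dendritic cells, the leukocytes that carry antigen to T cells. They are Flt3 and Zbtb46 (conventional dendritic cells as a whole), Xcr1, Clec9a and Batf3 (cDC1), Cd209a (cDC2 and monocyte-derived dendritic cells), Ccr7 and Fscn1 (mature, migrating dendritic cells) and Siglech (plasmacytoid dendritic cells). They were picked by symbol from the deposited gene count table and make up 9 of its 39676 genes. All 9 were found, each under 1 identifier, and all 9 passed the filter on low counts in every comparison.

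RNA was sequenced from 39 AB1-HA tumours. AB1-HA is a mouse mesothelioma line that carries the influenza haemagglutinin gene, and it was grown under the skin of BALB/c mice, which the study's methods give as adults of both sexes. Mice received PBS (10 tumours), tretinoin (9 tumours), immune checkpoint therapy (ICT, 10 tumours) or tretinoin+ICT (10 tumours). Per the labels, tretinoin, also named all-trans retinoic acid, was given at 5 mg/kg in 5 daily doses from day 4. The labels give ICT as 100 µg of anti-CTLA-4 with 100 µg of anti-PD-L1, starting on day 7. The study's methods give anti-PD-L1 in repeated doses. Tumours were removed on day 9. The tretinoin+ICT mice carried a tumour on each flank, and the tumour left in place was scored for response, giving 6 responder (R) and 4 non-responder (NR) tumours. The methods and legends do not all give the tretinoin dose and number of doses as the labels do. The labels give the controls as PBS, and whether this held the solvent that the methods name for tretinoin controls is not stated in the labels. All tumours come from a single cell line, so the groups differ in treatment and host animal and not in tumour genotype.

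Dendritic cells grow from bone marrow precursors under Flt3 ligand, which acts through the receptor encoded by Flt3. The cDC1 lineage needs the transcription factors Irf8 and Batf3, takes up dead cells through the lectin Clec9a and meets cytotoxic lymphocytes through the chemokine receptor Xcr1, and it is known in tumours for presenting tumour antigen to CD8 T cells. The cDC2 lineage mainly presents antigen to CD4 T cells, mature dendritic cells use Ccr7 to reach lymph nodes, and plasmacytoid dendritic cells are known for making type I interferon. Retinoic acid acts through nuclear receptors and is known to influence dendritic cell development.

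Windows before a RefSeq start are shown for Xcr1 and Zbtb46. Xcr1 encodes the chemokine receptor that is almost restricted to cDC1, and Zbtb46 the factor shared by conventional dendritic cells. The first varied between treatments and the second varied less. RefSeq windows (GRCm38.p6) were matched for 8 of the 9 genes, and the 250 bases before the start were searched on both strands for the letters of 5 motifs. Xcr1 is shown from chr9:123862030-123862279 (minus strand) and Zbtb46 from chr2:181424389-181424638 (minus strand), each 5′ to 3′, neither overlapping an annotated exon. The Zbtb46 window lies inside the annotated gene, in an intron, before a RefSeq start that is downstream of the gene's outer end. Whether transcription starts there was not tested, so the Zbtb46 window may be the end of an intron and not a promoter. Capitals mark the AP-1 motif (TGANTCA) and the nuclear receptor half-site (AGGTCA, here read on the other strand as TGACCT).
Xcr1: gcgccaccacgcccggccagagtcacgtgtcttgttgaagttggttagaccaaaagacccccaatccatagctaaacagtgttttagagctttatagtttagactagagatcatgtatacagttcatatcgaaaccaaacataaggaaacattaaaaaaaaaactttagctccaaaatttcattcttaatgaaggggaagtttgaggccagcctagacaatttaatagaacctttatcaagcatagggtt
Zbtb46: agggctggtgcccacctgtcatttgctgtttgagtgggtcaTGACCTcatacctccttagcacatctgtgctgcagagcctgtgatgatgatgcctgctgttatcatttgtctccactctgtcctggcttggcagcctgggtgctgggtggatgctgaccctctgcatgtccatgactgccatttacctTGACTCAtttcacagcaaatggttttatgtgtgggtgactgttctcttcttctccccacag
The Zbtb46 window held TGACTCA 61 bases and TGACCT 209 bases before the start, and the Xcr1 window held no match to any of the 5 motifs. AP-1 letters were in 6.75% and half-site letters in 14% of all 32851 windows. The interferon-gamma activated motif (GAS, TTCNNNGAA; 7.02% of windows) was matched 239 bases before the start of Batf3 as TTCCACGAA and 123 bases before the start of Siglech as TTCTCTGAA. The core of the interferon-stimulated response element (2.98% of windows) and the PU.1-IRF composite element (2.3% of windows) were matched in none of the 8 windows. Flt3, Clec9a, Cd209a and Fscn1 held no match. The Batf3 and Zbtb46 windows, set by the RefSeq start, lie inside the gene as annotated in the coordinates given for it, and the Fscn1 and Siglech windows overlap the first bases of theirs. A match describes letters and not a bound site.

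Levels are given as normalized counts, which are counts divided by DESeq2 size factors. Total counts ran from 14033046 to 37951183 per tumour, and the lowest raw count of any of the 9 genes in any tumour was 17, so counting error alone limits Batf3 in PBS tumours more than the other genes. A gene was called where edgeR's quasi-likelihood test gave a Benjamini-Hochberg adjusted p below 0.05 over all genes tested and the absolute log2 fold change was at least 1. Adjusted p values of log2 fold changes come from this test unless DESeq2 is named. In whole tumours, more cells of a type and more RNA of a gene per cell cannot be told apart. The first digit of a tumour's name forms series that do not cross treatments, so series and treatment cannot be told apart. The p values measure the spread between these tumours. How many of all genes separate 2 groups without overlap was not counted, so a gap between ranges only describes the gene named.

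PBS 14, Tretinoin 33, ICT 63 and ICT 82 stood apart in T cell transcripts in earlier results of these data. The first 3 had the highest summed T cell marker level of their groups (113, 169 and 191 CPM against group medians of 65.2, 81.7 and 56.2), and ICT 82 was second to ICT 63 among all 39 tumours, at 180. Each ranked first or second of its group for Xcr1, Clec9a and Batf3, but not for Cd209a, of which PBS 14 had the lowest PBS value. ICT 82 held the highest ICT value of Flt3, Zbtb46, Xcr1, Ccr7, Fscn1 and Siglech, and ICT 63 that of Clec9a and Batf3. Of the 9 T cell markers found none was at 0 in every tumour. Several values are given with and without these 4 tumours. Where only 1 value is given, its dependence on them is not shown. The part of T cell-rich tissue in the results was not tested. The tumour label could be checked only in part, as the mesothelial markers Msln, Krt8 and Krt18 were not found by symbol among the deposited genes. Of those found, Krt19, Lrrn4 and Upk3b stayed below 1 CPM in every tumour, whereas Wt1 and Pdpn passed the low-count filter in every comparison. Pdpn, which lymphatic endothelium and fibroblasts also express, had a mean log2 CPM of 6.09 to 6.29 across the fits and Wt1 one of 0.09 to 1.67. The tretinoin label was checked with Cyp26b1, a retinoid-degrading enzyme that retinoic acid induces, which ran from 101 to 213 in PBS, 118 to 603 in ICT, 4402 to 6986 in tretinoin and 970 to 3110 in tretinoin+ICT tumours.

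**Figure D1:**
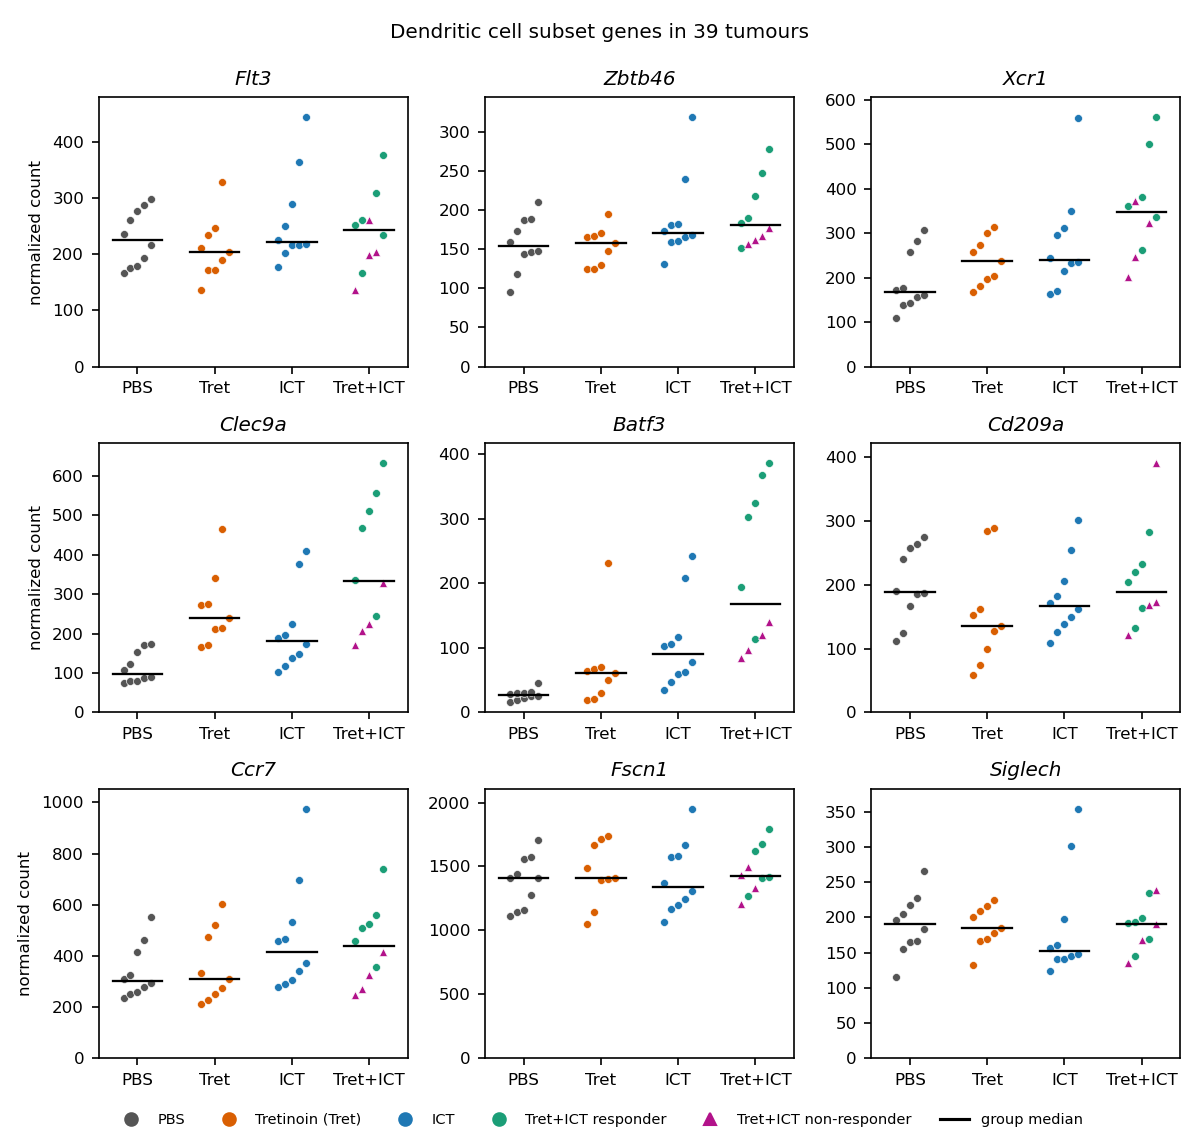
Normalized count (vertical axis, from 0) of the 9 genes in each tumour by treatment. Each point is 1 tumour, triangles are non-responders and the line is the group median; Batf3 and Clec9a separated most from PBS (all 10 tretinoin+ICT tumours above all PBS tumours for Batf3, 9 of 10 for Clec9a), whereas Fscn1 and Siglech overlapped in all groups.

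Batf3, the transcription factor on which cDC1 development depends (ENSMUSG00000026630.9, chr1:191097847-191108945 of GRCm38, plus strand), was the gene of the 9 with the largest differences. Which cells of these tumours held Batf3 RNA was not measured, so the Batf3 level by itself is not a measure of cDC1 number. In PBS tumours the normalized count of Batf3 ran from 15.5 to 44.7 with a median of 27. With tretinoin it ran from 19.6 to 231 with a median of 61.8. With ICT it ran from 34.1 to 241 with a median of 90.6. With tretinoin+ICT it ran from 84.8 to 386 with a median of 167, so that the lowest tretinoin+ICT tumour stood above the highest PBS tumour. Tretinoin 33, at 231, lay far above the next tretinoin tumour at 70.3.

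Clec9a, the lectin by which cDC1 sense dead cells (ENSMUSG00000046080.17, chr6:129408862-129424763, plus strand), followed the same order of group medians except that tretinoin lay above ICT. PBS tumours ran from 75.7 to 175 with a median of 98.6. Tretinoin tumours ran from 166 to 465 with a median of 239, and 7 of the 9 lay above every PBS tumour. ICT tumours ran from 102 to 410 with a median of 181. Tretinoin+ICT tumours ran from 170 to 632 with a median of 333. Clec9a shares 184 exon bases (5.59% of its exons) with Clec1b on the same strand, and reads on them could be assigned to either gene, but Clec1b itself had low counts, with group medians between 4.61 and 8.63 and a maximum of 39.1.

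Xcr1, the receptor of the chemokine Xcl1 (ENSMUSG00000060509.4, chr9:123852315-123862029, minus strand), differed less. PBS tumours ran from 110 to 306 with a median of 167 and tretinoin tumours from 168 to 315 with a median of 237. ICT tumours ran from 164 to 559 with a median of 240 and tretinoin+ICT tumours from 201 to 561 with a median of 349. The highest PBS value belonged to PBS 14 and the highest ICT value to ICT 82. The groups overlapped in every pairing.

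The receptor gene Flt3 (ENSMUSG00000042817.15, chr5:147330741-147400489, minus strand) had group medians of 226 (PBS), 204 (tretinoin), 223 (ICT) and 243 (tretinoin+ICT), and the 4 ranges overlapped, from 136 to 444 in all. Zbtb46, a transcription factor kept to conventional dendritic cells among leukocytes and also present in some endothelium (ENSMUSG00000027583.13, chr2:181387762-181459426, minus strand), had medians of 153, 158, 171 and 180 in the same order, with tumours between 94.7 and 318. Neither gene separated any pair of treatment groups.

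Cd209a, a C-type lectin of cDC2 and monocyte-derived dendritic cells (ENSMUSG00000031494.7, chr8:3743397-3748984, minus strand), had medians of 189, 135, 167 and 188 in PBS, tretinoin, ICT and tretinoin+ICT tumours. Its lowest value, 57.9, was in a tretinoin tumour and its highest, 390, in a tretinoin+ICT non-responder. Cd209a belongs to a family of similar genes, and how reads shared among them were counted is not stated in the sources used here. The ranges of the 4 groups overlapped.

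The mature dendritic cell genes differed little between groups. Ccr7, the receptor for the lymph node chemokines Ccl19 and Ccl21a (ENSMUSG00000037944.8, chr11:99144196-99155077, minus strand), had medians of 302, 308, 415 and 438 in PBS, tretinoin, ICT and tretinoin+ICT tumours, with ICT 82 highest at 974. Naive T cells also express Ccr7. Fscn1, which bundles actin in mature dendritic cells and is also common in mesenchymal and tumour cells (ENSMUSG00000029581.14, chr5:142960343-142973185, plus strand), had medians of 1412, 1407, 1339 and 1422, all within the range of PBS tumours (1113 to 1710). Siglech, a surface lectin of mouse plasmacytoid dendritic cells (ENSMUSG00000051504.18, chr7:55768178-55778925, plus strand), had medians of 190, 185, 152 and 191, and only ICT 63 and ICT 82, at 301 and 354, lay above the highest PBS value of 266.

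Per kilobase of exon the 9 genes could be set side by side. In PBS tumours the mean level was highest for Fscn1 (25.1 ± 3.7 CPM per kb, SD, n = 10), then Ccr7 (9.36 ± 2.91) and Cd209a (6.93 ± 2). Siglech (3.07 ± 0.689), Xcr1 (2.35 ± 0.825), Flt3 (2.03 ± 0.441) and Clec9a (1.9 ± 0.641) differed from the next in this order by less than the larger SD. Zbtb46 (1.01 ± 0.222) and Batf3 (0.932 ± 0.275) were lowest and did not differ beyond their spread. In tretinoin+ICT tumours Batf3 (7.23 ± 4) and Clec9a (6.07 ± 2.66) had moved up to the level of Cd209a (7.19 ± 2.8), with Xcr1 next (4.33 ± 1.33), and the spreads of these 4 overlapped.

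The first comparison asks what tretinoin alone did, and it gave higher Clec9a and Batf3 and no other call. That was 2 of the 9 genes, where 1.62% of the 14340 genes tested were called and 20.4% passed the adjusted p alone. Clec9a rose by 1.20 ± 0.21 (log2 fold change ± SE, adjusted p = 0.000481), a fold of 2.3. Batf3 rose by 1.34 ± 0.37 (adjusted p = 0.017). Xcr1, in contrast, had 0.32 ± 0.18 (adjusted p = 0.213) with 9 of 9 tretinoin tumours above the PBS median. Cd209a had -0.38 ± 0.27 (adjusted p = 0.321), Flt3 -0.12 ± 0.15 and Zbtb46 -0.03 ± 0.13, and the intervals of the last 2 (95%) reached from -0.43 to 0.18 and from -0.29 to 0.23. Ccr7, Fscn1 and Siglech lay between -0.02 and 0.08.

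The Batf3 change under tretinoin depended on 1 tumour and on the series. Without Tretinoin 33 it was 0.83 (adjusted p = 0.0282), and without all 4 of the tumours named above it was 0.94 (adjusted p = 0.0116), both short of the fold minimum. In tretinoin tumours of the series named with 3 the Batf3 median was 66.5 (5 tumours), and in that named with 7 it was 25.3 (4 tumours), against 29.8 and 24.7 in the PBS series. The log2 fold change was 1.72 and 1.93 for the first against each PBS series and 0.20 and 0.40 for the second (adjusted p = 0.821 and 0.542). Clec9a lay between 0.87 and 1.46 in the 4 pairings, with adjusted p = 0.0647 and 0.0585 for series 7.

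The next comparison asks what ICT alone did. Batf3 rose by 1.95 ± 0.31 (adjusted p = 0.000692), a fold of 3.86, with 9 of 10 ICT tumours above every PBS tumour. It was the only 1 of the 9 genes called, where 2.35% of 14155 genes were. Clec9a had 0.86 ± 0.25 (adjusted p = 0.0206) with 10 of 10 ICT tumours above the PBS median, so it passed the adjusted p but not the fold minimum, and on adjusted p alone 2 of the 9 genes were called, as were 21.2% of all genes. Xcr1 (0.54 ± 0.22, adjusted p = 0.0826) and Ccr7 (0.48 ± 0.22, adjusted p = 0.132) did not pass. Flt3, Zbtb46, Cd209a, Fscn1 and Siglech lay between -0.16 and 0.25, none with an adjusted p below 0.227. Without the 4 tumours Batf3 was 1.59 (adjusted p = 0.000186) and Clec9a 0.58 (adjusted p = 0.0386). In the same fit Xcr1 was 0.40 (adjusted p = 0.136) and Ccr7 0.17 (adjusted p = 0.592). Series 6 alone gave Batf3 1.70 and 1.90 (adjusted p = 0.242 and 0.13).

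The combination against PBS shows both treatments together and gave the largest differences. Batf3 rose by 2.97 ± 0.31 (adjusted p = 5.09e-07), a fold of 7.86. Clec9a rose by 1.69 ± 0.25 (adjusted p = 2.05e-05), a fold of 3.23. These 2 of the 9 genes were called, where 5.92% of 14265 genes were. Xcr1 had 0.90 ± 0.20 (adjusted p = 0.000894) with 10 of 10 tumours above the PBS median, under the fold minimum. On adjusted p alone 3 of the 9 genes passed, as did 50.3% of all genes. Zbtb46 (0.30 ± 0.13, adjusted p = 0.0668) and Ccr7 (0.39 ± 0.19, adjusted p = 0.101) did not pass. Siglech (-0.02, 95% interval -0.28 to 0.24), Flt3 (0.07, -0.25 to 0.39), Fscn1 (0.09, -0.08 to 0.26) and Cd209a (0.06, -0.35 to 0.48) had intervals that held 0.

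Tretinoin added to ICT, compared with ICT alone, gave no call among the 9 genes, where 0.394% of 14202 genes were called and 1.99% passed the adjusted p alone. Of the 9, 2 had an unadjusted p below 0.05 in edgeR, as had 2571 of all genes, and DESeq2 also called none of the 9, where it called 0.846% of 16185 genes. Clec9a had 0.83 ± 0.28 (adjusted p = 0.143) and Batf3 1.02 ± 0.36 (adjusted p = 0.163), each with 9 of 10 tumours above the ICT median. Without the 4 tumours, of which ICT 63 and ICT 82 enter here, Clec9a was 1.18 (adjusted p = 0.00836) and Batf3 1.48 (adjusted p = 0.0128), so both were called. These are the ICT tumours with the highest Batf3 and Clec9a, so leaving them out lowers the ICT side. Without ICT 63 alone Batf3 was called (1.24, adjusted p = 0.0453). With all tumours the other 7 genes lay between -0.12 and 0.35. Of these, Xcr1 was 0.59 (adjusted p = 0.0316) without the 4 tumours, past the adjusted p but under the fold minimum.

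ICT added to tretinoin, compared with tretinoin alone, raised Batf3 by 1.63 ± 0.43 (adjusted p = 0.0153), with 10 of 10 tumours above the tretinoin median. It was the only 1 of the 9 genes called, where 2.08% of 14393 genes were. Xcr1 had 0.58 ± 0.17 (adjusted p = 0.0218), past the adjusted p alone together with Batf3, as were 21.4% of all genes. Zbtb46 had 0.33 ± 0.12 (adjusted p = 0.0522) and Clec9a 0.49 ± 0.25 (adjusted p = 0.158). The Batf3 difference was 1.07 and 1.21 against tretinoin series 3 (adjusted p = 0.36 and 0.307) and 2.60 and 2.74 against series 7. With Ptprc log2 CPM, a pan-leukocyte measure described further on, as a covariate it was 0.49 (adjusted p = 0.467) and no longer called.

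**Figure D2:**
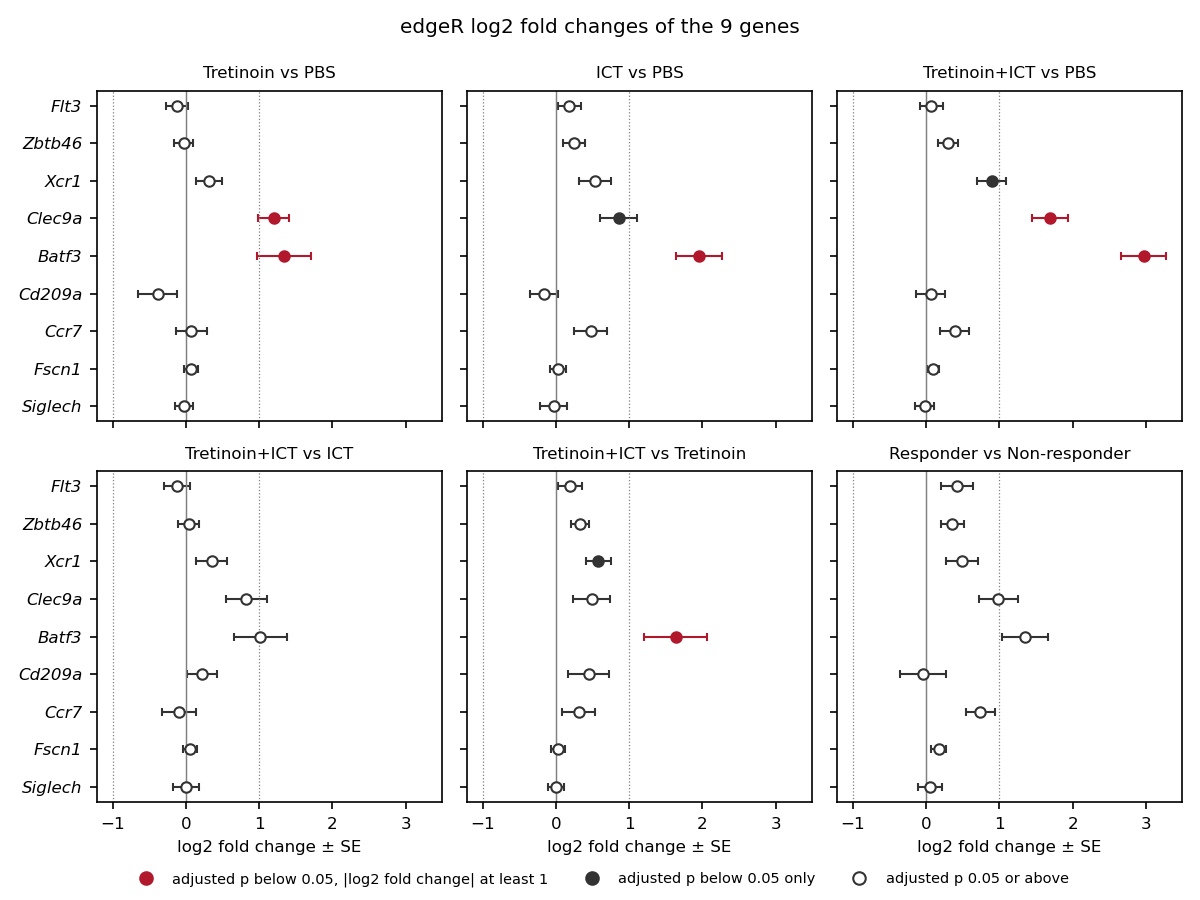
Log2 fold change ± SE (edgeR) of the 9 genes in 6 comparisons, 1 panel each, with dotted lines at -1 and 1. Red points are called, filled dark points pass the adjusted p only and open points do not pass; Batf3 is red against PBS in all 3 treatment groups, and Clec9a with tretinoin and tretinoin+ICT.

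The interaction asks whether the effect of tretinoin differed with ICT present. None of the 9 genes had an adjusted p below 0.05 in edgeR, where 0.307% of 14977 genes did, none had an unadjusted p below 0.05, as had 1415 of all genes, and DESeq2 likewise called none (0.448% of its 18767 genes at the adjusted p). Batf3 had -0.32 (95% interval -1.41 to 0.76) and Clec9a -0.37 (-1.11 to 0.36). Without the 4 tumours both turned in sign, to 0.54 for Batf3 (adjusted p = 0.598) and 0.05 for Clec9a (adjusted p = 0.955). Cd209a had 0.59 (-0.11 to 1.3) with an adjusted p of 0.6.

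The responder comparison concerns tretinoin+ICT tumours only. Batf3 was 84.8, 96.6, 120 and 140 in the 4 NR tumours. In the 6 R tumours it ran from 114 to 386 with a median of 313, and 5 of the 6 lay above every NR tumour, R 43 being the exception. Clec9a was 170, 205, 225 and 328 in NR tumours and ran from 244 to 632 in R tumours with a median of 489, again with 5 of 6 above all NR. Ccr7 was 248, 271, 327 and 416 in NR tumours and ran from 357 to 741 in R tumours with a median of 517. Xcr1 was 201, 248, 323 and 372 in NR tumours and ran from 263 to 561 in R tumours with a median of 371, with 3 of 6 above all NR.

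None of the 9 genes was called between R and NR tumours, and edgeR called 0 of 14604 genes (0%), although 3302 genes had an unadjusted p below 0.05. Batf3 had 1.35 ± 0.31 (adjusted p = 0.0841), Clec9a 0.99 ± 0.27 (adjusted p = 0.0907) and Ccr7 0.74 ± 0.20 (adjusted p = 0.0896). Xcr1 had 0.49 ± 0.22 (adjusted p = 0.217), Zbtb46 0.36 ± 0.16 (adjusted p = 0.198) and Flt3 0.42 ± 0.22 (adjusted p = 0.276). DESeq2 called 0.944% of 12818 genes, Batf3 among them (1.34, adjusted p = 0.000958), and gave Clec9a 0.98 with an adjusted p of 0.00623 and Ccr7 0.73 with 0.00897, both under the fold minimum. The name series were unevenly spread, with 2 R and 3 NR tumours in series 2 and 4 R and 1 NR in series 4. With the series as a block edgeR gave Batf3 1.49, Clec9a 1.09 (both adjusted p = 0.121), Ccr7 0.75 (adjusted p = 0.126) and Xcr1 0.68 (adjusted p = 0.122). Without R 43 edgeR called Batf3 (1.49, adjusted p = 0.00508) and Clec9a (1.09, adjusted p = 0.0127). R 43 had the lowest Batf3 and Clec9a of the R tumours, so leaving it out raises the R side. With any other tumour left out neither gene was called. The edgeR adjusted p then lay between 0.0692 and 0.266 for Batf3 and between 0.0705 and 0.266 for Clec9a. Cd209a (-0.04, 95% interval -0.72 to 0.64) and Siglech (0.06, -0.31 to 0.42) had intervals that held 0. The median log2 fold change of the 9 T cell markers in the same fit was 0.67, against 0.42 for 12 cDC1 genes and 0.01 for all genes, and the summed T cell level ran from 58.2 to 123 CPM in R and from 52.1 to 77.4 CPM in NR tumours; its part in the differences was not tested.

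The genes did not move in proportion to each other, as ratios within a tumour show. These 4 ratios were chosen after the values were seen, where 36 pairs were possible, and 24 tests were adjusted together. The adjusted p values do not cover that choice, so they describe these 4 ratios and not the 9 genes as a set. The ratio of Clec9a to Xcr1 ran from 0.519 to 0.692 in PBS tumours and from 0.894 to 1.48 in tretinoin tumours, without overlap. On the log2 scale the difference was 0.83 (exact permutation test, two-sided, adjusted p = 0.00026, all 9 tretinoin tumours above all 10 PBS tumours). With ICT alone the difference from PBS was 0.26 (permutation test, adjusted p = 0.0386), and 0.17 (adjusted p = 0.111) without the 4 tumours. Tretinoin+ICT differed from ICT by 0.45 (permutation test, adjusted p = 0.0202) and from tretinoin by -0.12 (exact permutation test, adjusted p = 0.45). The ratio was 0.928 to 1.46 in R and 0.636 to 0.907 in NR tumours, again without overlap, and the difference of 0.47 had an exact permutation p of 0.00952, the smallest that 6 against 4 tumours can give (adjusted p = 0.0206).

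Other ratios set Batf3 apart from Clec9a. The ratio of Batf3 to Clec9a had a median of 0.247 in PBS, 0.226 in tretinoin, 0.53 in ICT and 0.527 in tretinoin+ICT tumours. ICT differed from PBS by 0.97 on the log2 scale (permutation test, adjusted p = 0.00199), with 10 of 10 tumours above the PBS median, and tretinoin+ICT from tretinoin by 1.40 (exact permutation test, adjusted p = 0.000779). Tretinoin differed from PBS by -0.21 (exact permutation test, adjusted p = 0.531) and tretinoin+ICT from ICT by 0.22 (permutation test, adjusted p = 0.256). Clec9a to Cd209a was 1.70 higher with tretinoin than with PBS (exact permutation test, adjusted p = 0.00156) and 0.95 higher with ICT (permutation test, adjusted p = 0.0206). Xcr1 to Zbtb46 was 0.37 higher with tretinoin (exact permutation test, adjusted p = 0.0386), 0.28 higher with ICT (permutation test, adjusted p = 0.0945) and 0.61 higher with tretinoin+ICT (permutation test, adjusted p = 0.00234) than with PBS.

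**Figure D3:**
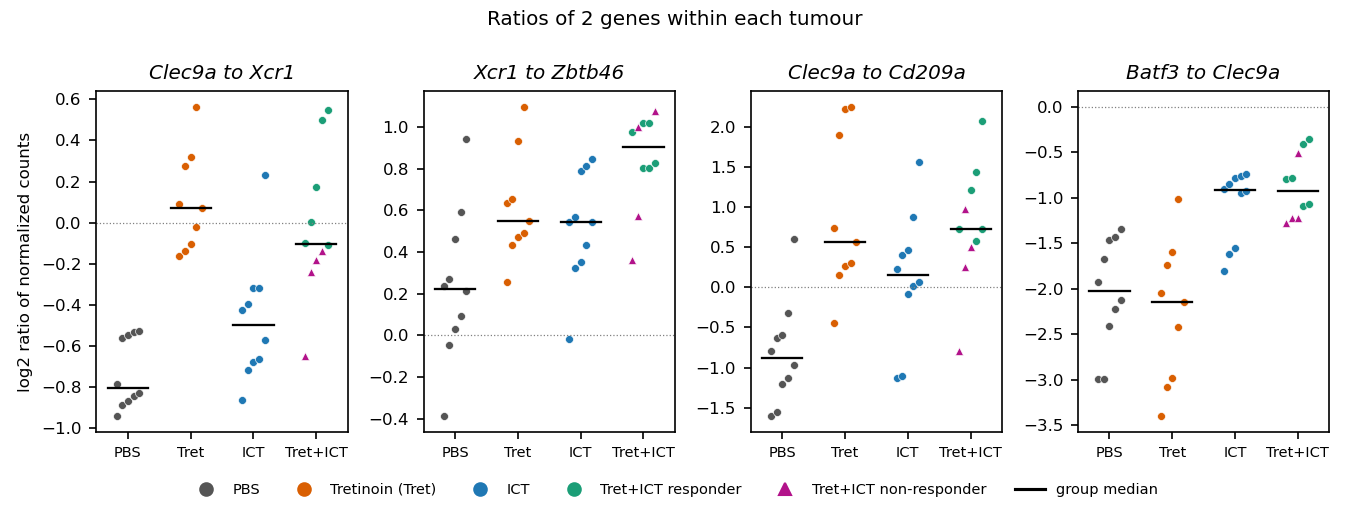
Log2 ratio of the normalized counts of 2 genes within each tumour, by treatment, with group medians as lines and non-responders as triangles. Clec9a to Xcr1 separates all tretinoin tumours from all PBS tumours, and Batf3 to Clec9a lies higher in both ICT groups than in PBS and tretinoin.

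A leukocyte-rich tumour could hold more of every dendritic cell transcript, so the pan-leukocyte gene Ptprc (CD45) was set beside the 9. Its median was 4219 in PBS, 4621 in tretinoin, 6141 in ICT and 7392 in tretinoin+ICT tumours, with log2 fold changes against PBS of 0.14 ± 0.16 (adjusted p = 0.562), 0.57 ± 0.22 (adjusted p = 0.0723) and 0.72 ± 0.15 (adjusted p = 0.000656). With log2 CPM of Ptprc as a covariate, Clec9a under tretinoin kept 1.05 (adjusted p = 2.28e-06) and Batf3 fell below the fold minimum at 0.90 (adjusted p = 0.0226). Under ICT, Batf3 kept 1.22 (adjusted p = 0.000258) and Clec9a had 0.34 (adjusted p = 0.168). With tretinoin+ICT against PBS, Batf3 kept 1.86 (adjusted p = 0.000451), Clec9a had 0.65 (adjusted p = 0.0338) and Xcr1 0.12 (adjusted p = 0.698). With tretinoin+ICT against ICT, Clec9a had 0.60 (adjusted p = 0.0282) and Batf3 0.76 (adjusted p = 0.0259), both passing the adjusted p but not the fold minimum. Against tretinoin, Batf3 had 0.49 (adjusted p = 0.467), Xcr1 0.04 (adjusted p = 0.92) and Clec9a -0.34 (adjusted p = 0.402). Between R and NR tumours Batf3 had 0.78 and Clec9a 0.46 (both adjusted p = 0.489). Ptprc was itself higher with tretinoin+ICT, so part of a treatment effect can be taken up by the covariate.

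**Figure D4:**
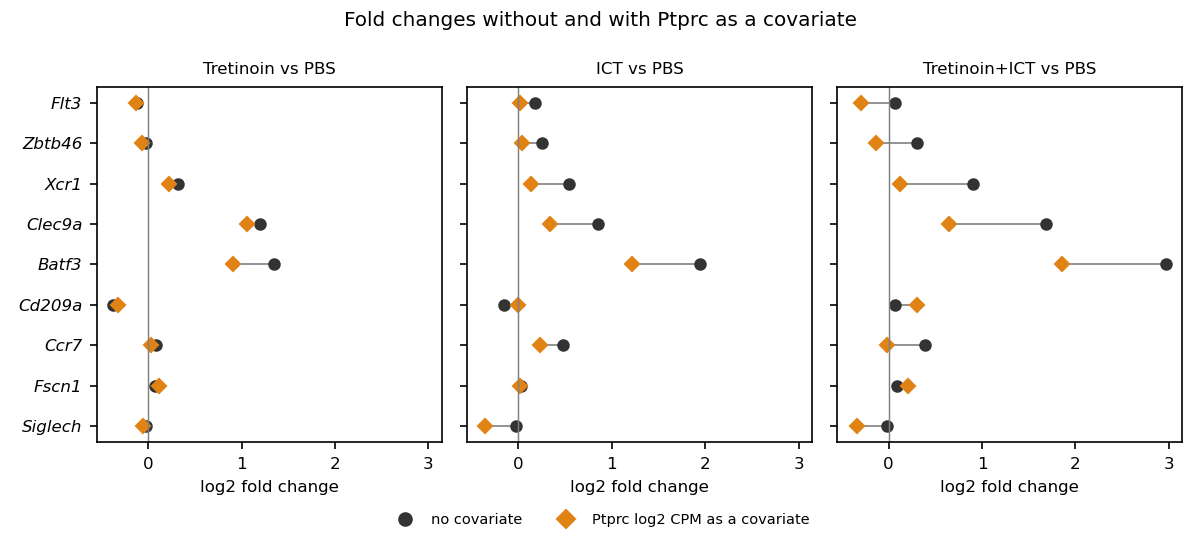
Log2 fold change of the 9 genes against PBS (horizontal axis) without (circles) and with (diamonds) Ptprc log2 CPM as a covariate, 1 panel per treatment. With tretinoin Batf3 moves from 1.34 to 0.90 and Clec9a from 1.20 to 1.05, and with tretinoin+ICT the diamond of Xcr1 moves from 0.90 to 0.12 and that of Batf3 from 2.97 to 1.86.

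Within treatment groups many of the genes varied together. After each group's mean was removed from the log2 CPM values, 36 pairs were correlated over 39 tumours, with p values from 100000 permutations within groups, of which 1e-05 is the smallest they can give. The closest pair was Xcr1 with Clec9a (Pearson r = 0.88, Spearman rho = 0.90, permutation p = 1e-05 for each, adjusted 4e-05 and 5.14e-05), and r was 0.86 without the 2 tumours farthest in Xcr1. Batf3 followed Clec9a (r = 0.76, rho = 0.74, permutation p = 1e-05 for each, adjusted 4e-05 and 5.14e-05; r = 0.71 without the 2 farthest). Flt3 was closest to Ccr7 (r = 0.83, rho = 0.81, permutation p = 1e-05 for each, adjusted 4e-05 and 5.14e-05; r = 0.79 without the 2 farthest), and Zbtb46 to Xcr1 (r = 0.78, rho = 0.76, permutation p = 1e-05 for each, adjusted 4e-05 and 5.14e-05; r = 0.70 without the 2 farthest).

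Cd209a did not follow the cDC1 genes. Its r was -0.02 with both Xcr1 and Clec9a (rho -0.0045 and -0.0036, permutation p = 0.921 and 0.923 for r and 0.98 and 0.983 for rho, adjusted p = 0.95 for r and 0.983 for rho) and -0.18 with Batf3 (rho -0.15, permutation p = 0.355 and 0.39, adjusted 0.426 and 0.484). It followed Flt3 (r = 0.60, rho = 0.61, permutation p = 9e-05 and 1e-04, adjusted 0.000249 and 0.00036). Fscn1 followed Ccr7 (r = 0.58, rho = 0.55, permutation p = 0.0003 and 0.00053, adjusted 0.000635 and 0.00119) and not the cDC1 genes (r between -0.01 and 0.10). Siglech had r = 0.72 with Zbtb46 (rho = 0.62, permutation p = 1e-05 and 6e-05, adjusted 4e-05 and 0.00024), 0.60 without the 4 tumours. Its r with Batf3 was 0.36 over all tumours (rho 0.30, permutation p = 0.0271 and 0.0717, adjusted 0.0391 and 0.0992) and 0.04 without the 4, so that this relation rested on them. Without the 4 the r of Siglech also fell from 0.55 to 0.31 with Clec9a and from 0.58 to 0.39 with Ccr7.

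**Figure D5:**
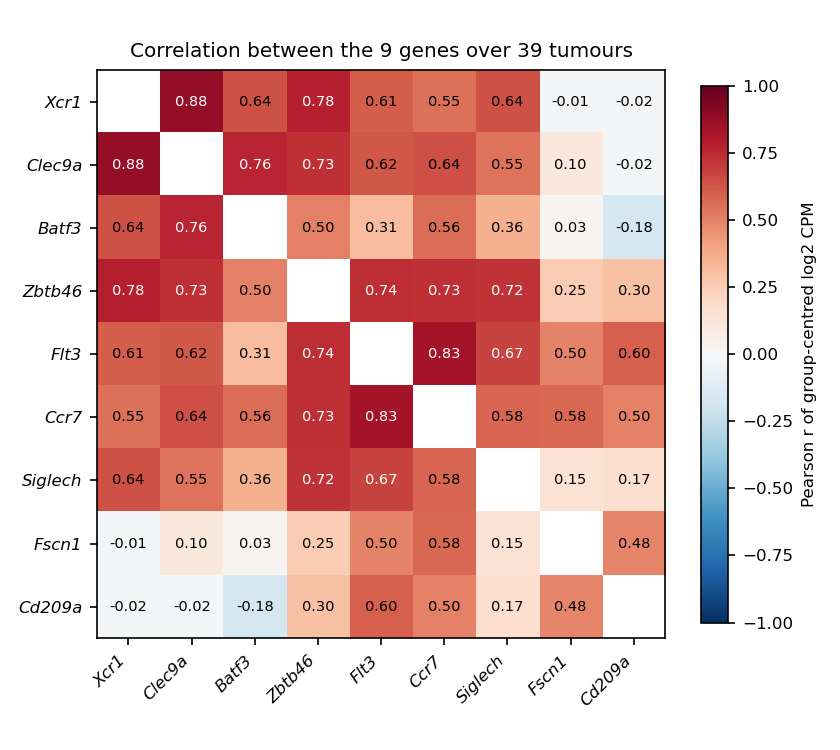
Pearson r between the 9 genes over 39 tumours after removing group means from log2 CPM. Xcr1, Clec9a, Batf3, Zbtb46 and also Ccr7 have r of 0.50 or more with each other (without the 4 tumours 0.47 for Batf3 with Zbtb46, and 0.42 and 0.43 for Ccr7 with Xcr1 and Batf3), and the row of Cd209a is near 0 for Xcr1 and Clec9a.

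Among the 14976 other genes that passed the filter over all tumours, up to 3 with the highest r are given for each of the 9. Xcr1 was nearest to Tlr11 (r = 0.90), a profilin-sensing Toll-like receptor, then Clec9a (0.88) and Btla (0.87), an inhibitory receptor of lymphocytes and dendritic cells. Clec9a was nearest to RP24-94F12.3, H2-Ea-ps and Slamf1 (0.91 each), and Batf3 to Gm2a, Rgs11 and Pim1 (0.92 each). Ccr7 was nearest to Nr4a3, Ramp3 and Strip2 (0.91 each), and Flt3 to Strip2, Tbc1d4 and Il12b (0.84, 0.84 and 0.83), the last encoding the p40 chain of interleukin-12. Cd209a was nearest to its relatives Cd209e, Cd209d and Cd209c (0.79 each), genes of similar sequence between which reads could be shared. Siglech was nearest to Ccr9 (0.83), a receptor also used by plasmacytoid dendritic cells, then Aff3 and Btla. Zbtb46 was nearest to Btla, Bcl2l14 and H2-Ob (0.84 to 0.82), and the named neighbours of Fscn1, 1700003F12Rik (0.71) and Ppard (0.70), had the lowest r of those given. Without the 4 tumours these r lay between 0.63 and 0.91.

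The ligands and growth factors of these receptors were measured in the same tumours. Flt3l, the ligand of Flt3, had medians of 333, 450, 440 and 586 in PBS, tretinoin, ICT and tretinoin+ICT tumours, and a log2 fold change against PBS of 0.32 ± 0.10 (adjusted p = 0.028), 0.33 ± 0.12 (adjusted p = 0.0494) and 0.64 ± 0.10 (adjusted p = 2.28e-05), all under the fold minimum. In R tumours it ran from 548 to 663 and in NR tumours from 416 to 507, without overlap (0.46 ± 0.08, adjusted p = 0.0841). In that comparison 3302 of 14604 genes had an unadjusted p below 0.05 in edgeR. A second identifier of Flt3l was at 0 in every tumour. Xcl1, the ligand of Xcr1, had 0.54 ± 0.12 (adjusted p = 0.00109) with tretinoin+ICT and 0.22 ± 0.19 (adjusted p = 0.432) with tretinoin. Ccl19, a ligand of Ccr7, rose with tretinoin+ICT against PBS by 1.11 ± 0.31 (adjusted p = 0.00478) from a median of 10.3 to 23.3, and Ccl21a, the other ligand, had 0.05 ± 0.31 (adjusted p = 0.896). Csf2, a growth factor for dendritic cells, rose by 3.25 ± 0.35 (adjusted p = 5.44e-07) with tretinoin+ICT. Csf2 was at a low level, with a mean log2 CPM of 1.04 in the fit of tretinoin+ICT against ICT. Of the 14 ligand and growth factor genes tested with tretinoin+ICT against PBS 7 rose and none fell (median log2 fold change 0.92, against -0.01 over all genes), and 3 of 13 rose with ICT and 0 of 13 with tretinoin. Of all genes 5.92%, 2.35% and 1.62% were called in these comparisons.

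Other transcription factors of dendritic cells rose as well. Of 17 tested, Batf3 included, 3 rose with tretinoin, 3 with ICT, 4 with tretinoin+ICT against tretinoin and 6 with tretinoin+ICT against PBS. None was called lower, and the medians were 0.16, 0.57, 0.49 and 0.78, where 1.62%, 2.35%, 2.08% and 5.92% of all genes were called. On adjusted p alone 1 was lower with ICT, 2 with tretinoin+ICT against tretinoin and 1 with tretinoin+ICT against PBS. Irf8, the partner of Batf3 in cDC1, ran from 946 to 2382 in PBS and from 3087 to 7155 in tretinoin+ICT tumours, without overlap, and rose by 1.84 ± 0.19 (adjusted p = 8.41e-07). It had 0.89 ± 0.20 (adjusted p = 0.0047) with tretinoin and 0.96 ± 0.24 (adjusted p = 0.00915) with ICT. Between tretinoin+ICT and PBS 50.3% of all genes passed the adjusted p alone. Nfil3, a basic leucine zipper factor needed early in cDC1 development, rose by 1.93 ± 0.20 (adjusted p = 5.29e-07) and Batf2, a relative of Batf3, by 2.37 ± 0.27 (adjusted p = 2.15e-06) with tretinoin+ICT. Irf4, a factor of cDC2, rose by 1.01 ± 0.17 (adjusted p = 0.000264) with tretinoin and by 1.57 ± 0.19 (adjusted p = 2.87e-06) with tretinoin+ICT.

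Each subset was also described by a wider list that holds the members named above, and the shares of all genes called were 1.62% with tretinoin, 2.35% with ICT and 5.92% with tretinoin+ICT against PBS. Of 12 cDC1 genes 2 rose with tretinoin, 2 with ICT and 5 with tretinoin+ICT against PBS (median log2 fold changes 0.31, 0.55 and 0.74). With tretinoin they were Clec9a and Batf3, both among the 9 genes, so no further cDC1 gene was called. With ICT they were Batf3 and Naaa, a lysosomal acid amidase. With tretinoin+ICT Batf3 and Clec9a were again among the 5, and Naaa rose by 1.72 ± 0.21 (adjusted p = 4.16e-06). Of 12 cDC2 genes 2, 2 and 4 rose (medians 0.25, 0.56 and 0.57), so the wider cDC2 list held risers although Cd209a was not one. With tretinoin they were Mgl2 and Irf4, and with ICT Mgl2 and Clec10a. With tretinoin+ICT they were Mgl2 (2.63 ± 0.31, adjusted p = 3.15e-06) and Clec10a (1.84 ± 0.27, adjusted p = 2.25e-05), lectins that macrophages also express, with Irf4 and Cd1d1 (1.29 ± 0.22, adjusted p = 0.000103). Of 14 mature dendritic cell genes 1, 4 and 5 rose (medians 0.28, 0.44 and 0.49). Ccl17, a chemokine of mature dendritic cells and macrophages, rose by 3.45 ± 0.34 (adjusted p = 3.88e-07), Ccl22 by 1.86 ± 0.25 (adjusted p = 9.58e-06) and the costimulatory receptor Cd40 by 1.66 ± 0.24 (adjusted p = 1.73e-05) with tretinoin+ICT. Of 10 plasmacytoid dendritic cell genes tested none was called in these comparisons (medians 0.09, 0.14 and 0.50), and with tretinoin+ICT 5 were higher and 1 lower on adjusted p alone, a share near the 50.3% of all genes.

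Lists of pan-conventional genes, of antigen presentation and of receptors were read against the same shares of all genes called (1.62%, 2.35% and 5.92%). Of 9 pan-conventional genes 0, 2 and 2 rose with tretinoin, ICT and tretinoin+ICT against PBS (medians 0.16, 0.25 and 0.55), Itgax (CD11c) by 1.18 ± 0.25 (adjusted p = 0.00475) with ICT and by 1.43 ± 0.20 (adjusted p = 1.61e-05) with tretinoin+ICT. Of 10 genes of cross presentation and costimulation 1, 5 and 8 rose (medians 0.72, 0.98 and 1.42), with H2-Ab1, an MHC class II chain, at 1.81 ± 0.26 (adjusted p = 1.95e-05) and the costimulatory ligand Cd86 at 1.49 ± 0.20 (adjusted p = 9.59e-06) with tretinoin+ICT. That list held 17 genes, of which 11 were found by symbol, and Cd70, Cd74, Cd80, Cd83, Icosl and Tnfsf9 were not. Of 15 receptors and lectins 2, 2 and 3 rose (medians 0.18, 0.51 and 0.53), Clec7a, the beta-glucan receptor Dectin, by 3.05 ± 0.31 (adjusted p = 6.13e-07). In none of these 7 lists, the 4 subset lists included, was a gene called lower in these 3 comparisons. On adjusted p alone Esam of the cDC2 list (-0.22, adjusted p = 0.0384) and Tcf4 of the plasmacytoid list (-0.20, adjusted p = 0.0107) were lower with ICT. The plasmacytoid list also held 1 lower gene with tretinoin+ICT. None of the genes of these lists was called between tretinoin+ICT and ICT, where 0.394% of all genes were, and several lists share genes.

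Markers of other cells moved with these groups as well. The summed macrophage list ran from 3337 to 4997 CPM in PBS and from 4690 to 7312 CPM in tretinoin+ICT tumours. The monocyte gene Chil3 rose in every comparison between treatments (4.91 ± 0.60, adjusted p = 4.59e-06, with tretinoin+ICT against PBS). In that comparison 2 of 9 macrophage and 3 of 5 monocyte genes rose, where 5.92% of all genes were called. On adjusted p alone all 9 macrophage genes were higher, where 50.3% of all genes passed. Their median log2 fold change was 0.83, against 0.74 for the 12 cDC1 genes. The summed T cell list overlapped between PBS (52.1 to 113 CPM) and tretinoin+ICT (52.1 to 123 CPM), with 0 of 9 genes called. Of 4 lymph node stroma genes tested 2 rose and 1 fell with tretinoin+ICT, and the 8 B cell markers summed to at most 19.1 CPM in any tumour, Fcer2a staying below 1 CPM. The Langerhans cell gene Cd207 fell with tretinoin by 1.87 ± 0.27 on the log2 scale (adjusted p = 4.54e-05) and with tretinoin+ICT by 1.70 ± 0.31 (adjusted p = 0.000127). Cd207 was at a low level, with a mean log2 CPM of 0.90 in the fit of tretinoin against PBS. The part of these cells in the levels of the 9 genes was not tested.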

How the data were processed

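Total RNA of 39 tumours was sequenced by the authors as single-end reads on a NovaSeq instrument, demultiplexed with bcl2fastq 2.20.0.422 and aligned with HISAT2 2.0.4 (per the submitters' processing notes) to a mouse genome the paper calls mm11. Reads per gene were tallied by the authors with SummariseOverlaps, and the deposited values are raw counts with 1 column per tumour. Strand mode and multi-mapping are not given in the sources used here.

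The 9 genes, the lists and the tests were chosen with earlier results of these data known. Named genes are the 9, the 3 genes nearest to each by Pearson r, up to 4 called genes per direction with the largest change from each list, and Ptprc, Flt3l, Xcl1, Ccl19, Ccl21a, Itgax and Irf8. Clec1b (exon overlap), Cyp26b1 (label check) and markers at low levels are named besides, and 1 gene the rule names is not reported here. edgeR 4.0.16 in R 4.3.3 was run with TMM, filterByExpr and a robust quasi-likelihood fit on the 2 groups compared (all 39 tumours for the interaction), and checked on simulated data. Log2 CPM used a prior count of 2. DESeq2 1.42.0 was an alternative and gave the size factors. Ratios were compared by two-sided permutation tests on the log2 scale, exact where a group had under 10 tumours and with 100000 resamples otherwise (scipy 1.17.1). Coordinates and exon lengths are those of GENCODE M21 on GRCm38, which 36719 of the identifiers (92.55%) matched with their version. The windows before RefSeq starts are of GRCm38.p6. Alternatives were DESeq2, edgeR with the size factors of DESeq2, only genes without any count removed, all tumours in one fit, no fold minimum, Ptprc as a covariate, series of tumour names, and leaving out tumours.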

Additional observations from a re-analysis of the deposited data

Results flagged for a closer look

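Of the 54 combinations of a gene and a group examined, 2 held a tumour far from the others by Dixon's criterion, which flags about 1 in 20 groups by chance. Batf3 in Tretinoin 33 was 231, against 70.3 in the next tretinoin tumour. Xcr1 in ICT 82 was 559, against 349 in the next ICT tumour. None of the 9 genes had an adjusted p below 0.05 in the edgeR interaction of tretinoin and ICT, and none had an unadjusted p below 0.05.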

How the results depend on the processing

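The number of the 9 genes called changed as follows. For tretinoin against PBS it was 2, and 1 with the Ptprc covariate and without the 4 tumours, 1 to 2 with PBS 14 or Tretinoin 33 alone left out (1 without Tretinoin 33), and 0 with series 7 against 1 and against 5. For ICT against PBS it was 1, and 2 with no fold minimum and 0 with series 6 against 1 and against 5. For tretinoin+ICT against ICT it was 0, and 2 without the 4 tumours and 0 to 1 with ICT 63 or ICT 82 alone left out (1 without ICT 63). For tretinoin+ICT against tretinoin it was 1, and 2 with no fold minimum and 0 with the Ptprc covariate and with series 2 or 4 against 3. For tretinoin+ICT against PBS it was 2, and 1 with the Ptprc covariate and 3 with no fold minimum and with series 2 against 1. Between R and NR it was 0, and 1 with DESeq2 and 0 to 2 with each tumour left out in turn (2 without R 43). The causes were not tested, and fewer tumours enter the series and leave-out fits. Zbtb46 with tretinoin+ICT against PBS was 0.30 and turned to -0.14 with the Ptprc covariate (adjusted p = 0.637). Of 774 alternative log2 fold changes of single genes, 70 had another sign, between -0.48 and 0.54. Fold changes of group means computed from TMM-scaled CPM moved by under 0.1 in all 27 cases. Without the 4 tumours the r of Siglech went from 0.36 to 0.04 with Batf3. It went from 0.55 to 0.31 with Clec9a and from 0.58 to 0.39 with Ccr7. No paired analysis was possible because no tumour number is shared between groups. The name series could serve as a block for R against NR only, and 0 genes of the 9 were called with it. The ratios, and leaving out the 4 tumours singly, were chosen after the values were seen. Batf3 in PBS tumours, with the lowest counts, is limited most by depth.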
